A study of Danio rerio with 9 samples.

Results

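The 34 genes described here are cell cycle genes of the zebrafish, listed by name, with no threshold on their values. Of these, 16 act in DNA replication or its preparation, 17 act from late S phase to the end of mitosis, and 1 is the G1 cyclin ccnd1. They are 34 of the 31953 genes of the deposited count table. The second deposited table, which lists 20847 genes, holds 31 of them. All 34 names matched a gene identifier, 31 by the deposited symbol and 3 (mcm7, cdt1 and cenpe) through a reference table of gene names. RNA was sequenced in bulk from 9 libraries of sorted embryo cells, 3 libraries in each of 3 groups. Cardiac neural crest cells were mCherry-positive and came from embryos of the 16 somite stage, 17 h after fertilisation. The tissue taken began at the midbrain-hindbrain boundary and ended at somite 6. These embryos carried -4.9sox10:GAL4-UAS-cre together with the transgenes UAS:NfsB-mCherry and myl7:nucGFP, in 1 line. Non-crest cells were the mCherry-negative cells of the same tissue, line and stage. Trunk neural crest cells were GFP-positive and came from Tg(-4.9sox10:eGFP) embryos at 24 h, from somites 7 to 16. In both lines a sox10 promoter fragment drives the reporter, directly in the trunk crest line and through GAL4 in the other, and the cells of the GAL4 line also carry the cre and NfsB transgenes. Cardiac and trunk crest therefore differ in axial level, age, line and reporter at once, and these cannot be told apart.

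A cell that enters the cycle passes a restriction point in G1 under D-type cyclins, which release E2F factors and so switch on the genes of DNA replication. Cyclin E, the licensing factors cdc6 and cdt1 and the MCM helicase then prepare and open the origins, and pcna, the sliding clamp, holds the polymerases on the template. A later wave of genes, among them cyclins A and B with their kinase cdk1, the aurora and polo kinases and the kinetochore and spindle proteins, peaks in G2 and mitosis. Neural crest cells divide while they migrate, and many cells of the surrounding embryonic tissues divide too. In bulk RNA, fewer cycling cells and less of a transcript per cycling cell cannot be told apart.

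Reads in the count table numbered between 34062539 and 45172404 per library, and the reads recovered for trunk crest came to between 25128422 and 29842884 per library. Neural crest markers summed to between 882 and 1091 CPM (each count scaled by the total of its library) in cardiac crest, against between 35.6 and 152 CPM in non-crest. Libraries stood apart within their groups. Cardiac crest replicate 3 held 8273 CPM of 6 striated muscle markers, against 9.31 and 20.2 CPM in the other cardiac crest libraries and between 6533 and 9870 CPM in non-crest. Non-crest replicate 3 had the lowest level of the 6 libraries of the count table for 16 of the 31 members measured, against 34.6% of the 18115 genes with a read in all 9 libraries. The labels do not state whether the replicates were separate pools of embryos. The p-values therefore reflect only how far these libraries scatter, which may be technical.

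Of the 34 members, 3 could not be measured. The helicase subunit gene mcm7 (GRCz10, chromosome 14, 150838 to 158517, plus strand) lies wholly inside tmem107 on the opposite strand. The licensing factor gene cdt1 (chromosome 7, 55217108 to 55229201) lies wholly inside galns, and cenpe, a kinetochore motor gene (chromosome 1, 264860 to 300878), lies wholly inside cul4a. All 3 were listed at 0 reads in the 6 libraries of the count table. So were all 4824 genes of the table that lie wholly inside another gene, and a count of 0 there says nothing about expression. Partial overlaps with other genes also touch mcm3 (74.54% of its length, shared with stmn4), ccne2 (82.77%), plk1 (52.1%), ccna2 (32.67%) and mcm6 (15.73%). Reads from the shared stretches cannot be assigned to one gene, so the levels of these 5 genes are less certain. Reads of mcm3 and mcm6 may also be split with their close copies mcm3l and mcm6l.

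The first comparison set cardiac crest against trunk crest, that is, the sox10-reporter cells of the cardiac level at 17 h against those of the trunk at 24 h. Of the 31 members tested, 15 were higher in cardiac crest and 0 were lower, by limma with Benjamini-Hochberg adjusted p-values below 0.05 over all 20847 genes. Over all genes the share called higher was 10.7% and the share called lower was 12.5%. All 31 members averaged over 200 size-factor-scaled reads, and among the 9631 genes above that level 13.6% were called higher and 22.7% lower. The members called higher were 10 of 16 mitotic genes, 4 of 14 replication genes and ccnd1. The median log2 fold change was 0.90 over the members, 1.02 over the mitotic and 0.56 over the replication genes, against 0.14 over all genes and -0.15 over the genes above 200 scaled reads. The fold change was positive for 30 members and negative for mcm3. The 3 cardiac crest libraries lay wholly above the 3 trunk crest libraries for 19 of the 31 members, against 21.5% of all genes. Without cardiac crest replicate 1 or without trunk crest replicate 2 the number called fell to 8, and without trunk crest replicate 3 it was 9. Without any one of the other 3 libraries it was between 12 and 13. Over all genes the number called higher was 2233, and 1333 without cardiac crest replicate 1. It was 1691 without trunk crest replicate 2 and 1767 without trunk crest replicate 3. Without any one of the other libraries it was between 1344 and 1869.

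**Figure D1:**
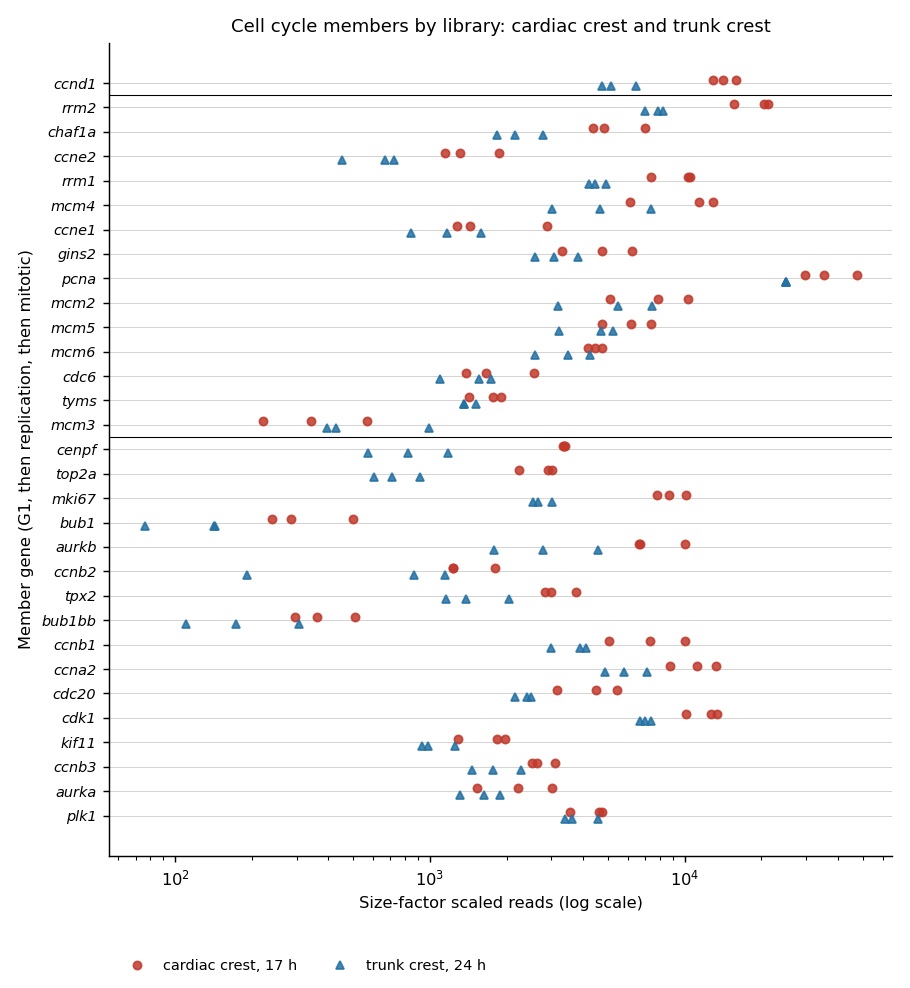
Size-factor-scaled reads (log axis) of the 31 measured members in each library, with cardiac crest as circles and trunk crest as triangles, ordered within G1, replication and mitotic genes by fold change. The circles lie wholly to the right of the triangles for 19 genes, including ccnd1, rrm2, chaf1a, top2a and mki67, while they overlap for the MCM genes.

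Expression of ccnd1, the D-type cyclin that starts the passage through G1, was 14180, 15870 and 12876 scaled reads in the cardiac crest libraries, against 5128, 6463 and 4751 in trunk crest. The lowest cardiac crest library was far above the highest trunk crest library. The ratio of the means was 2.63 and the log2 fold change 1.40 ± 0.20 (SE), with an adjusted p of 0.0016. The gene (GRCz10, chromosome 7, 54400402 to 54409943, minus strand) shares no base with another gene.

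Among the replication genes, the 4 called higher supply nucleotides, start S phase or load histones. The subunits of ribonucleotide reductase, the enzyme that makes deoxynucleotides, both rose. Its small subunit gene rrm2 had 21153, 20527 and 15560 scaled reads in cardiac crest, against 8204, 7875 and 6998 in trunk crest (log2 fold change 1.30 ± 0.20, SE, adjusted p = 0.0020). Its large subunit gene rrm1 had 10267, 7360 and 10518 scaled reads in cardiac crest, against 4894, 4454 and 4199 in trunk crest (1.04 ± 0.21, adjusted p = 0.0082). For chaf1a, the large subunit of the factor that places histones on new DNA, the values were 7009, 4842 and 4350 in cardiac crest, against 2784, 1834 and 2154 in trunk crest (1.25 ± 0.26, adjusted p = 0.0091). The groups did not overlap for any of these 3 genes. The cyclin E gene ccne2 had 1144, 1309 and 1861 scaled reads in cardiac crest, against 453, 666 and 725 in trunk crest (1.22 ± 0.30, adjusted p = 0.019). Leaving out cardiac crest replicate 2, or trunk crest replicate 1, ended its call with an adjusted p of 0.053, and 82.77% of it overlaps another gene.

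Neither the clamp gene nor any helicase gene passed the test. The sliding clamp gene pcna had 47345, 35300 and 29772 scaled reads in cardiac crest, against 25007, 24983 and 24970 in trunk crest. The groups did not overlap, but the cardiac crest libraries were spread widely, and the fold change of 0.56 ± 0.20 (log2, SE) did not pass the test, with an adjusted p of 0.082 that ranged from 0.028 to 0.22 over 14 alternatives. It passed with upper-quartile scaling and without cardiac crest replicate 3. The helicase subunit genes mcm2, mcm4, mcm5 and mcm6 had log2 fold changes of 0.55, 1.04, 0.48 and 0.40, and each overlapped between the groups. Of these mcm4 came nearest to the threshold, with 11377, 6080 and 12939 scaled reads in cardiac crest, against 7376, 3018 and 4652 in trunk crest and an adjusted p of 0.081. The value of mcm3 was -0.66 ± 0.47 (adjusted p = 0.35), with 564, 222 and 342 scaled reads in cardiac crest, against 995, 395 and 428 in trunk crest. It was the only member with a negative value, and stmn4 overlaps 74.54% of it. The other replication genes, ccne1, the licensing factor cdc6, the helicase partner gins2 and the thymidylate synthase gene tyms, had values between 0.26 and 0.59 with overlapping libraries. Over the 10 replication genes that did not pass, the adjusted p lay between 0.081 and 0.47.

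The 3 calls with the smallest adjusted p among the mitotic genes were also their 3 largest fold changes. The kinetochore gene cenpf had 3365, 3317 and 3387 scaled reads in cardiac crest, against 1180, 570 and 818 in trunk crest, so that the mean was 3.92 times as high (log2 fold change 2.03 ± 0.28, SE, adjusted p = 0.0014). For top2a, the topoisomerase that untangles sister chromatids, the values were 2908, 3013 and 2246 in cardiac crest, against 916, 603 and 710 in trunk crest (1.88 ± 0.25, adjusted p = 0.0011). The proliferation marker mki67, whose protein coats mitotic chromosomes, had 10156, 8708 and 7808 scaled reads in cardiac crest, against 2538, 2661 and 3018 in trunk crest (1.69 ± 0.20, adjusted p = 0.00055). In each of these 3 genes the lowest cardiac crest library was far above the highest trunk crest library, and each was called in all 14 alternatives. So did ccnd1, rrm1, rrm2 and chaf1a, which makes 7 of the 15.

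The other mitotic calls were smaller or rested on particular libraries. Aurora B gene aurkb, the kinase of the chromosomal passenger complex, had 10056, 6603 and 6693 scaled reads in cardiac crest, against 4558, 1788 and 2767 in trunk crest (log2 fold change 1.43 ± 0.34, SE, adjusted p = 0.018). The spindle assembly factor gene tpx2, which activates Aurora A, had 3744, 2989 and 2823 in cardiac crest, against 2046, 1381 and 1158 in trunk crest (1.09 ± 0.26, adjusted p = 0.018). The groups did not overlap for either gene. Values of the kinase gene cdk1 were 12625, 10141 and 13354 in cardiac crest, against 7342, 6979 and 6671 in trunk crest (0.77 ± 0.19, adjusted p = 0.019). Its S and G2 partner ccna2 had 11172, 8781 and 13272 in cardiac crest, against 7127, 5758 and 4848 in trunk crest (0.90 ± 0.23, adjusted p = 0.023), and its mitotic partner ccnb1 had 7314, 5028 and 10048 in cardiac crest, against 4099, 3895 and 2988 in trunk crest (0.98 ± 0.28, adjusted p = 0.034). The kinase and both cyclins thus lay higher in every cardiac crest library than in any trunk crest library. The activator of the anaphase-promoting complex, cdc20, had 4470, 3166 and 5408 in cardiac crest, against 2155, 2485 and 2400 in trunk crest (0.86 ± 0.24, adjusted p = 0.033). The checkpoint kinase gene bub1 had 499, 241 and 285 in cardiac crest, against 143, 76.0 and 143 in trunk crest (1.48 ± 0.45, adjusted p = 0.044). The groups did not overlap for either gene. Each of these 7 calls was lost without cardiac crest replicate 1 and also without trunk crest replicate 2, and that of bub1 when any one library was left out. The highest adjusted p for any of the 7 was 0.16, for bub1 without cardiac crest replicate 1. Over all genes too, fewer were called higher whenever a library was left out.

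The 6 mitotic genes that did not pass had log2 fold changes between 0.15 and 1.28, with adjusted p between 0.095 and 0.66. The largest of these values belonged to the cyclin gene ccnb2, with 1229, 1228 and 1801 scaled reads in cardiac crest, against 864, 1147 and 192 in trunk crest. Its libraries did not overlap, but trunk crest replicate 3 was far below the other trunk crest libraries. The cyclin gene ccnb3 and the spindle motor gene kif11 did not overlap either, with log2 fold changes of 0.60 and 0.67. The kinase gene aurka and the checkpoint gene bub1bb overlapped, at 0.45 and 1.06. The polo kinase gene plk1 had the smallest value, 0.15 ± 0.22 (SE), from 4613, 3540 and 4718 scaled reads in cardiac crest, against 4576, 3403 and 3622 in trunk crest. A limit of at most 10% of length shared with another gene, chosen after the overlaps were seen, left 26 members. Of these 13 were called higher and 0 lower, beside 10.7% and 12.5% of all genes. Their median was 1.01. In the authors' deposited table, 15 of the 31 members had an adjusted p below 0.05 and a higher level in cardiac crest. At that threshold 0 had a higher level in trunk crest. The authors' test used the same libraries, and its share over all genes was not counted.

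**Figure D2:**
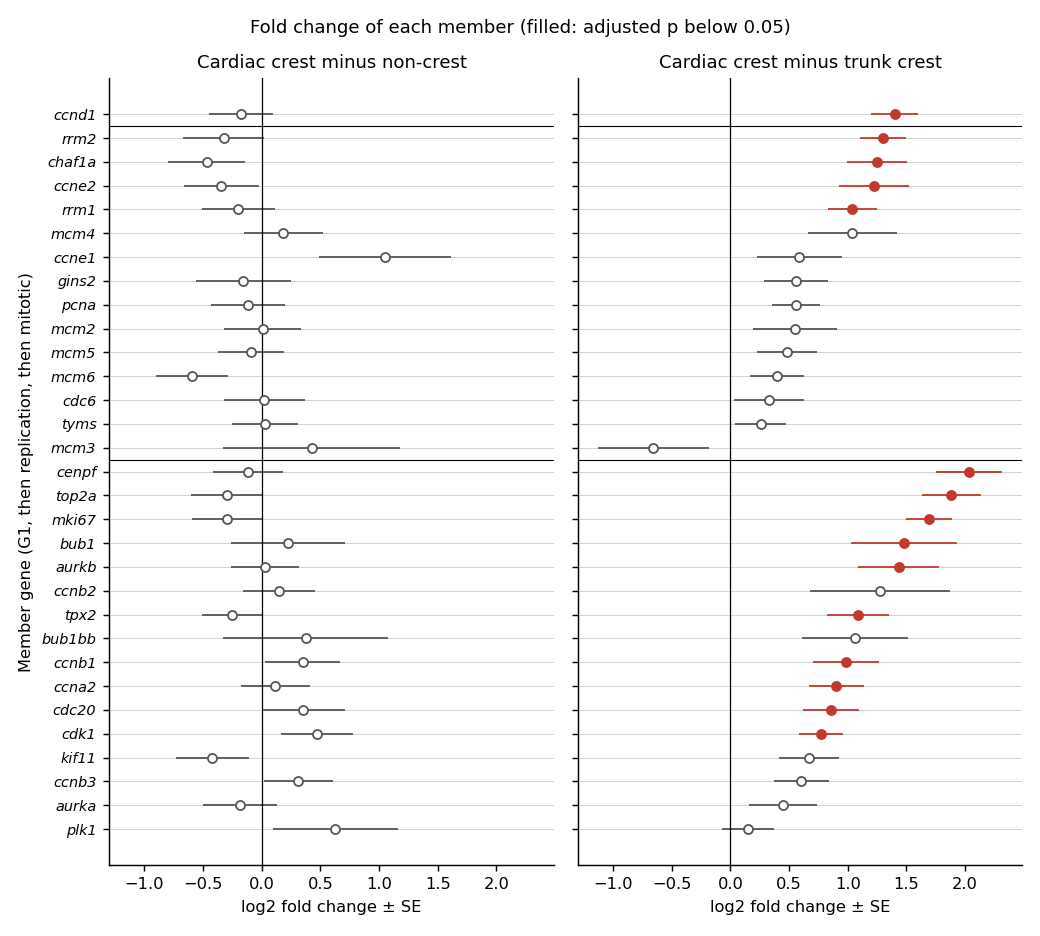
Log2 fold change of each measured member with its standard error, for cardiac crest minus non-crest on the left and cardiac crest minus trunk crest on the right, filled where the adjusted p was below 0.05. On the left 0 members are filled and the values lie on both sides of 0, and on the right 15 are filled and mcm3 alone is below 0.

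Markers of other cell types moved between the same groups. The 6 pigment cell markers summed to between 914 and 1545 scaled reads in cardiac crest, against between 1604190 and 1785460 in trunk crest, and all 6 were lower in cardiac crest by the same test. The 4 neural markers listed were sox19a, sox19b, neurod1 and elavl3, which are not all markers of progenitors. They summed to between 6603 and 14042 in cardiac crest, against between 378 and 1328 in trunk crest. In trunk crest sox19a was at 0 reads in all 3 libraries. All 4 were called higher in cardiac crest. The 5 striated muscle markers listed summed to between 291 and 240028 in cardiac crest, against between 181530 and 670594 in trunk crest. Neural crest markers summed to between 25623 and 34123 in cardiac crest, against between 42735 and 47066 in trunk crest. The 6 listed were split, with 3 fold changes positive and 3 negative. Of these, snai1b was called higher in cardiac crest, and sox10 and tfap2e were called lower. The 4 epidermal markers listed summed to between 12394 and 17875 in cardiac crest, against between 6657 and 10433 in trunk crest, with 1 called higher. The 4 endothelial and blood markers listed summed to between 115 and 164 in cardiac crest, against between 16.0 and 25.9 in trunk crest, also with 1 called higher. The part of all these cells in the differences of the cycle genes was not tested. Without cardiac crest replicate 3, the muscle-rich library of its group, the striated muscle sums left in cardiac crest were 291 and 528. Leaving it out thus widened the muscle difference from trunk crest. In that setting 12 members were called higher, beside 1869 of all genes. The medians were then 0.81 over the mitotic and 0.43 over the replication genes.

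Mitotic and replication genes were also set against each other within each library, as the mean log2 level over the 16 mitotic genes minus that over the 14 replication genes. Gene lengths enter each mean, so only the change of this difference between libraries can be read. It was -0.56, -0.40 and -0.55 in the cardiac crest libraries, against -0.82, -0.92 and -1.11 in trunk crest. All 3 cardiac crest libraries lay above all 3 trunk crest libraries, so these mitotic members stood lower relative to these replication members in trunk crest. The mean log2 level of the replication genes was between 11.77 and 12.25 in cardiac crest, against between 11.30 and 11.63 in trunk crest, and that of the mitotic genes between 11.37 and 11.70 in cardiac crest, against between 10.28 and 10.81 in trunk crest. Both means were without overlap. These values are a description with no test, as is the difference between 10 of 16 mitotic and 4 of 14 replication genes called.

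**Figure D3:**
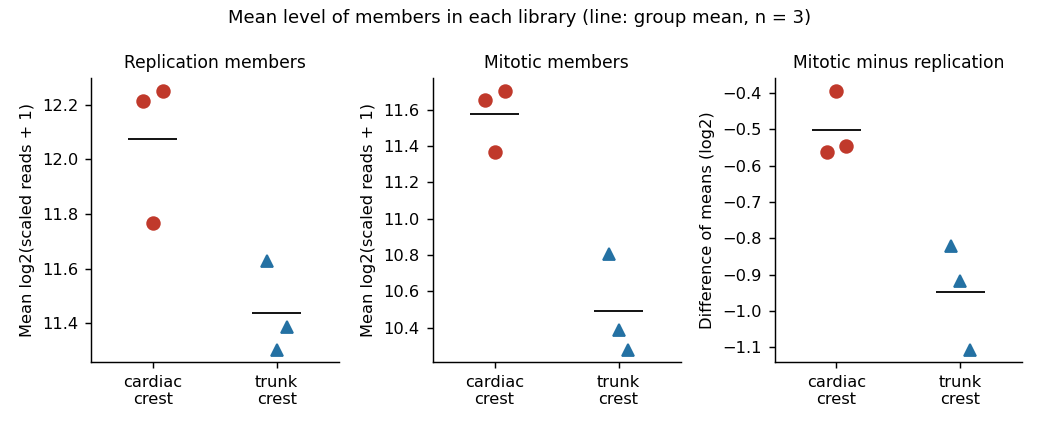
Mean log2(scaled reads + 1) over the 14 replication members, over the 16 mitotic members, and the second minus the first, with 1 point per library (cardiac crest left, trunk crest right) and a line at the mean of 3. In all 3 panels the cardiac crest points lie above the trunk crest points, and the difference is between -0.56 and -0.40 in cardiac crest, against between -1.11 and -0.82 in trunk crest.

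Other genes of the cycle, taken from lists of known function, were tested in the same fit. The counts below stand beside 10.7% of all genes called higher and 12.5% called lower, with a median of 0.14, and beside 13.6% higher and 22.7% lower among the genes above 200 scaled reads, with a median of -0.15. Of 25 genes for fork polymerases, clamp loading and chromatin copying, 15 were higher in cardiac crest and 0 lower, with a median log2 fold change of 0.91. The DNA ligase gene lig1, which seals the fragments of the lagging strand, had 7330, 5776 and 7083 scaled reads in cardiac crest, against 1864, 2272 and 1975 in trunk crest (1.72 ± 0.20, SE, adjusted p = 0.00057). The catalytic subunit gene of the leading-strand polymerase, pole, was 4.56 times as high (2.30 ± 0.41, adjusted p = 0.0044). The clamp loader gene rfc2 (1.51) and uhrf1 (1.44), which carries DNA methylation through replication, rose as well. These genes work beside pcna at the fork. Of the 12 genes of origin licensing and firing, 3 were called higher, against 10.7% of all genes. They were gins4 (1.59), gins1 (1.29) and gins3 (0.92), which encode partners of gins2 in the GINS complex. The call of gins3 was lost without cardiac crest replicate 1, trunk crest replicate 1 or trunk crest replicate 2, with an adjusted p of up to 0.062. The median of this list was 0.54 and 0 of its genes were lower.

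Of 47 genes of chromosome segregation and cytokinesis, 26 were higher and 1 was lower in cardiac crest, with a median of 1.11. The spindle pole gene aspm had 5490, 4100 and 4554 scaled reads in cardiac crest, against 900, 771 and 501 in trunk crest, a ratio of 6.51 (log2 fold change 2.73 ± 0.27, SE, adjusted p = 0.00027). The inhibitor of the anaphase-promoting complex fbxo5 (2.31) and the kinetochore scaffold gene knl1 (1.85) also rose. The one gene that fell was cdc25d, of the family of phosphatases that activate cyclin-dependent kinases. It had 56.7, 20.003 and 61.9 scaled reads in cardiac crest, against 969, 968 and 1082 in trunk crest (-4.57 ± 0.48, adjusted p = 0.00035). Its direction was opposite to that of the other 26 genes called on the list. Among those was its relative cdc25b (1.89), which was named after its values were seen.

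Among 23 G1 cyclins, kinases and E2F and Rb factors, 9 were higher and 0 lower, against 10.7% and 12.5% of all genes, and the median was 0.34, against 0.14 over all genes. They included the MYC family gene mycn, with 20529, 14943 and 20044 scaled reads in cardiac crest, against 5586, 5807 and 5137 in trunk crest (1.74 ± 0.20, SE, adjusted p = 0.00050). A related gene, mych, was 4.78 times as high (2.31 ± 0.39, adjusted p = 0.0038). The repressor gene e2f8 (1.32) and tfdp2 (1.38), whose protein pairs with E2F factors, rose too.

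Of 26 brakes of the cycle, 7 were lower and 3 higher in cardiac crest, and the median was -0.34. These are 26.9% lower and 11.5% higher, near the 22.7% and 13.6% of the genes above 200 scaled reads, so the counts say nothing particular about the brakes as a list. The growth-arrest gene gadd45aa had 181, 334 and 207 scaled reads in cardiac crest, against 4178, 5802 and 6300 in trunk crest (-4.52 ± 0.30, SE, adjusted p = 3.94e-05). Its relatives gadd45ga (-3.07 ± 0.27) and gadd45bb (-2.17 ± 0.22) fell as well, and so did the antiproliferative gene tob1b (-1.56 ± 0.23). The trunk crest libraries of all 4 genes lay wholly above those of cardiac crest. Among the brakes that were higher in cardiac crest were wee1, a kinase gene that holds back cdk1, and gadd45gb.1, at 0.79 and 2.60, which were named after their values were seen.

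**Figure D4:**
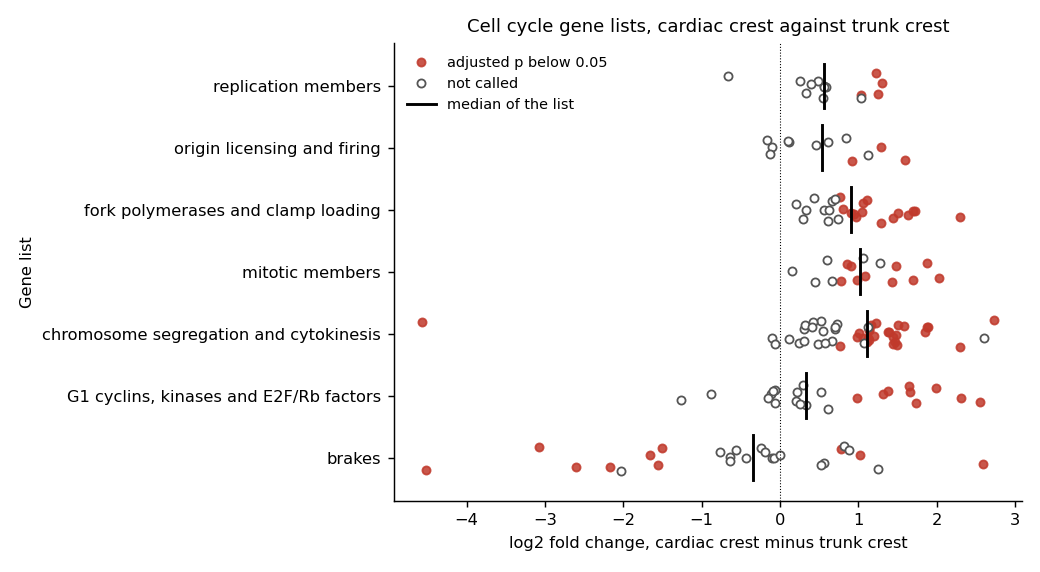
Log2 fold change, cardiac crest minus trunk crest, of each tested gene in 7 lists of cell cycle genes, filled where the adjusted p was below 0.05, with a bar at the list's median. The medians of the lists of replication and mitosis lie between 0.54 and 1.11, while that of the brakes is -0.34 and 7 of its genes are filled on the negative side.

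The second comparison set cardiac crest against the non-crest cells around it, sorted from the same tissue at the same stage. Of the 31 members tested, 0 were called by edgeR's quasi-likelihood test with Benjamini-Hochberg adjustment over 19648 genes. An unadjusted p below 0.05 was found for 0 members, against 2131 of the 19648 genes. DESeq2's Wald test also called 0 members, against 1050 of the 19648 genes. Over all genes edgeR called 1.5% in either direction. The adjusted p of the members lay between 0.54 and 0.997. The median log2 fold change was 0.01 over the members, -0.10 over the replication and 0.13 over the mitotic genes, against -0.04 over all genes tested, with 16 values positive and 15 negative. The libraries did not overlap for cdk1, above, and mcm6, below, which is 2 of 31 against 17.0% of all genes. That a gene missed the threshold does not show that its levels were equal, and the standard errors, between 0.26 and 0.75 on the log2 scale, limit what could be seen.

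**Figure D5:**
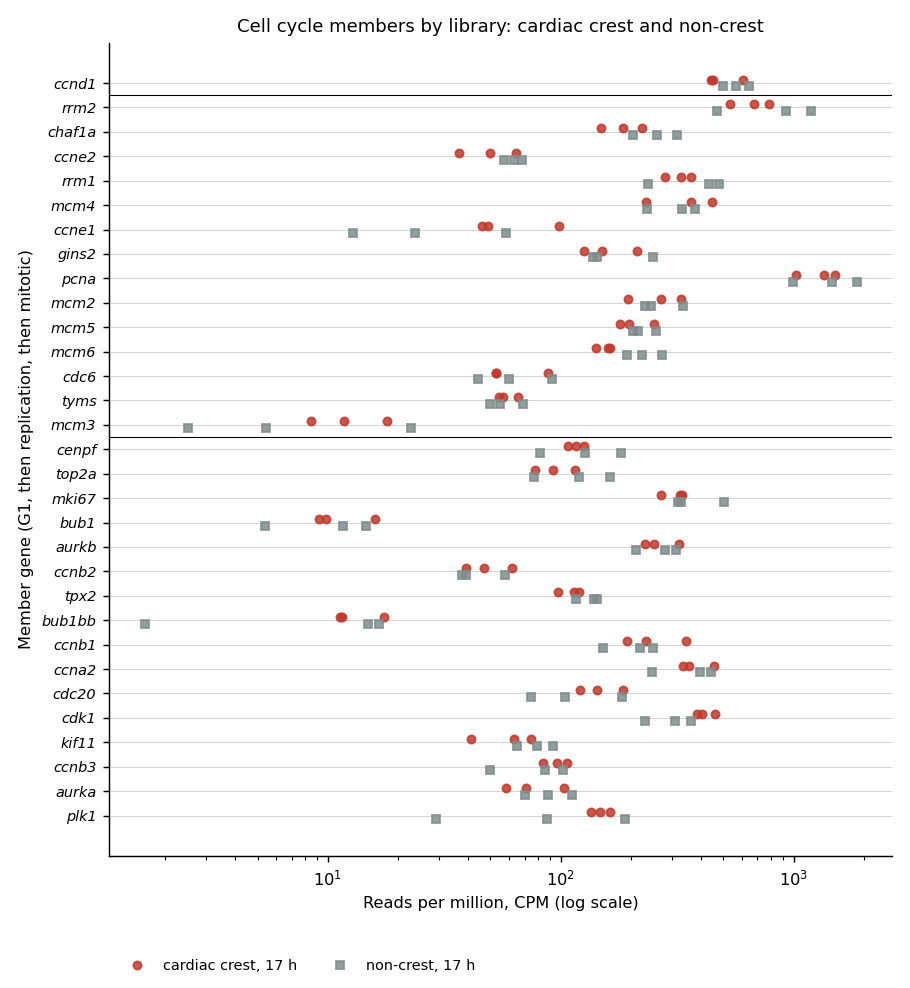
CPM (log axis) of the 31 measured members in each library, with cardiac crest as circles and non-crest as squares, in the same order as the plot against trunk crest. The symbols overlap for all genes but cdk1 and mcm6, and the squares of plk1 and bub1bb reach from 29.3 to 188 and from 1.64 to 16.6.

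The G1 cyclin ccnd1 was at 453, 606 and 443 CPM in cardiac crest, against 566, 645 and 496 CPM in non-crest (log2 fold change -0.18 ± 0.27, SE). The clamp gene pcna was at 1513, 1347 and 1025 CPM in cardiac crest, against 1468, 1870 and 997 CPM in non-crest (-0.12 ± 0.32), and mki67 at 325, 332 and 269 CPM in cardiac crest, against 504, 319 and 328 CPM in non-crest (-0.30 ± 0.30). In each of these the groups overlapped. The cells around the crest thus held these transcripts at levels that could not be set apart from the crest with 3 libraries a group.

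Of the replication genes, the largest negative value was that of mcm6, with 142, 159 and 162 CPM in cardiac crest, against 224, 193 and 271 CPM in non-crest (-0.59 ± 0.30, adjusted p = 0.54). The values of chaf1a (-0.47), ccne2 (-0.34) and rrm2 (-0.32) were also negative. The largest positive value was that of the cyclin E gene ccne1, with 46.1, 49.0 and 98.8 CPM in cardiac crest, against 12.9, 58.5 and 23.6 CPM in non-crest (1.05 ± 0.56, adjusted p = 0.57). Cardiac crest replicate 3 gave its highest value, and the groups overlapped. The values of mcm3 (0.42), mcm4 (0.18) and tyms (0.03) changed sign in some alternatives.

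Of the mitotic genes, cdk1 was at 404, 387 and 460 CPM in cardiac crest, against 230, 363 and 308 CPM in non-crest (0.47 ± 0.31, adjusted p = 0.67). All cardiac crest libraries were above all non-crest libraries, by a small margin. Values of plk1 were 147, 135 and 162 CPM in cardiac crest, against 87.1, 188 and 29.3 CPM in non-crest (0.63 ± 0.53), where the non-crest libraries spread on both sides of the crest. The checkpoint gene bub1bb was at 11.5, 11.3 and 17.5 CPM in cardiac crest, against 15.0, 16.6 and 1.64 CPM in non-crest (0.38 ± 0.70). Its positive sign rested on non-crest replicate 3, and without that library the value was -0.16. The value of cdc20 was 0.35, and those of kif11 (-0.42), top2a (-0.30) and tpx2 (-0.25) were negative. Both libraries that stand apart, cardiac crest replicate 3 and non-crest replicate 3, bear on this comparison. Markers of other tissues differed between the groups. The 6 epidermal markers summed to between 428 and 571 CPM in cardiac crest, against between 6881 and 15913 CPM in non-crest, and 6 endothelial and blood markers summed to between 3.98 and 12.6 CPM in cardiac crest, against between 323 and 505 CPM in non-crest. Their part in the levels of the cycle genes was not tested. Without those 2 libraries that stand apart, 0 members were called, beside 752 of 20068 genes. The medians were then -0.20 over the replication and -0.15 over the mitotic genes, against -0.10 and 0.13 with all libraries. The sign of the mitotic median thus depended on these libraries.

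The mitotic minus replication difference was -0.55, -0.39 and -0.54 in the cardiac crest libraries, against -0.34, -0.65 and -0.90 in non-crest, and the groups overlapped. The lowest was non-crest replicate 3, which had the lowest level of the 6 libraries for 11 of the 16 mitotic and 5 of the 14 replication genes.

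Of the other cycle genes, 1 was called against non-crest, beside 1.5% of all genes. It was 1 of 23 tested on the G1 list, with 0 called among 12 licensing, 25 fork, 48 segregation and 25 brake genes. The count says nothing particular about these lists. The D-type cyclin gene ccnd2a, a relative of ccnd1, was at 398, 237 and 237 CPM in cardiac crest, against 92.6, 77.6 and 73.9 CPM in non-crest, a ratio of 3.57 (log2 fold change 1.87 ± 0.34, SE, adjusted p = 0.043 by edgeR's quasi-likelihood test). The lowest cardiac crest library was far above the highest non-crest library. Its adjusted p over 12 alternatives ranged from 0.00042 to 0.18, and it missed the threshold whenever any one library was left out. Against trunk crest the value of ccnd2a was 0.53 ± 0.28 (adjusted p = 0.21). Of these D-type cyclins, ccnd1 was thus called against trunk crest and ccnd2a against non-crest, and whether their patterns differ was not tested.

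In the other lists 0 genes were called against non-crest, and the medians were 0.03 for licensing and firing, 0.09 for fork polymerases, -0.05 for segregation and 0.02 for the brakes. The widest values were those of orc3 (1.097) and orc5 (0.76), subunits of the origin recognition complex, asf1bb (0.68), a histone chaperone gene, and prim1 (-0.56), the primase gene. On the other lists they were kif2c (1.04), a microtubule-depolymerising kinesin gene, the survivin gene birc5b (-1.59, below 0.5 CPM in every library), rprmb (-3.22) and fzr1b (-1.33), an activator of the anaphase-promoting complex. The value of rprmb came from 1.61, 2.50 and 15.2 CPM in cardiac crest, against 9.72, 10.5 and 138 CPM in non-crest, so 1 library of non-crest held most of its reads.

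The 3 groups were last placed on 1 scale, CPM over the 20847 genes that both tables list. Trunk crest and non-crest come from different tables and lines, so these levels are given with no test. Trunk crest had the lowest mean for 28 of the 31 members, the exceptions being mcm3, ccne1 and plk1. The order between the other 2 groups was mixed, with the highest mean in cardiac crest for 12 members and in non-crest for 18. The shares of all genes with these orders of means were not counted. All 3 trunk crest libraries lay below all 3 non-crest libraries for 25 of the 31 members, and above them for 0. Over the 18115 genes with a read in all 9 libraries, 28.0% lay below and 16% lay above. The median ratio of trunk crest to non-crest was 0.446 over the members and 0.724 over those genes. On this scale mki67 averaged 309 ± 33.7 in cardiac crest, 75.8 ± 6.57 in trunk crest and 389 ± 103 in non-crest (SD, n = 3 each). The corresponding means of ccnd1 were 502 ± 90.2 in cardiac crest, 151 ± 22.4 in trunk crest and 577 ± 77.8 in non-crest, and those of pcna were 1298 ± 245 in cardiac crest, 692 ± 15.7 in trunk crest and 1467 ± 449 in non-crest. For all 3 genes cardiac crest and non-crest overlapped and trunk crest lay below both. CPM divides by the library total only, without the size factors used in the first comparison. On size-factor-scaled reads the ratio of the cardiac crest mean to the trunk crest mean was 3.25 for mki67 and 2.63 for ccnd1. For these genes and for pcna it was smaller than the ratio of the CPM means. The distance of trunk crest from the other groups on this scale therefore depends in part on the scaling.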

How the data were processed

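Cells were sorted and their cDNA made with the SMART-Seq v4 kit, without molecular identifiers, and sequenced from 1 end, per the labels' protocols. Alignment by the authors used Bowtie2 and GRCz10, per the submitters' processing notes. The first table holds unnormalised read counts for each gene, from featureCounts 1.5.1 on Ensembl release 80 over whole gene bodies without strand, per the file headers. The second deposited table holds a signal for cardiac and trunk crest, reads divided by a size factor; dividing by the smallest non-zero value gave whole reads for 100% of values (tolerance 0.02), equal to the raw counts in cardiac crest. Its deposited log2 fold changes, which run trunk over cardiac crest, and p-values are quoted only as the authors'. DESeq is named in those notes with no version. The labels give 16 somites where the count table's own name gives another stage, and the labels were followed.

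The test against non-crest was edgeR 4.0.16 (TMM, default expression filter, robust quasi-likelihood test on the counts), and that against trunk crest was limma 3.58.1 (trend, robust) on log2(value + 1) with no filter, in R 4.3.3. On that scale fold changes of low genes are understated. A call is a Benjamini-Hochberg adjusted p below 0.05 over all genes tested. The SE against non-crest is the fold change divided by the root of edgeR's F. Both fits were run on simulated data, with changes larger than those of nearly all members, so that check says little about smaller changes. For the fit against trunk crest the simulated reads were scaled by TMM, not by the deposited size factors. Count tests on the recovered reads, over 100% whole values, were alternatives, with edgeR and DESeq2 1.42.0. They called 15 and 16 members higher, beside 2126 and 2859 of all genes tested. Members and lists were chosen with earlier results of these data known. Genes were named by rule: ccnd1, pcna, mki67, the called members or else those with the largest fold change in each direction, and up to 4 genes a list. The main fits did not pair samples by replicate number. Same-numbered cardiac crest and non-crest samples carry consecutive library numbers, so they may come from the same sorts. A replicate block was run as an alternative. Promoter and protein sequences were not used here.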

Additional observations from a re-analysis of the deposited data

How the results depend on the processing

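Against trunk crest, the count of members called higher was 15 under both other pseudocounts, a minimum mean of 10, TMM and edgeR. It was 16 under DESeq2 and 18 under upper-quartile scaling, which moved the median of all genes to 0.27, against 0.14. Over all genes the number called higher moved too, from 2233 in the main fit to 2859 under DESeq2 and 2667 under upper-quartile scaling. Under the settings that called 15 members it lay between 2126 and 2335. Leaving out 1 library gave between 8 and 13 members called higher, beside between 1333 and 1869 of all genes. The replication median was then between 0.43 and 0.80. With a replicate block 13 were called higher, beside 1978 of all genes. Same-numbered samples correlated at 0.01, 0.03 and -0.005, and values from 3 libraries a group cannot settle whether samples are paired. Against non-crest 0 members were called under any alternative, the replicate block included (same-number correlations 0.04, 0.03 and 0.18), and the replication median ranged from -0.26 to 0.035 with 1 library left out. Over all genes these alternatives called between 93, without cardiac crest replicate 2, and 1050, by DESeq2's Wald test. The main edgeR fit called 294. With so few genes called in most settings, a count of 0 members does not show that their levels were equal. Signs changed only against non-crest, for values near 0 or with wide errors. The value of tyms was -0.0020 with DESeq2 size factors, -0.0091 with no filter, -0.0020 by DESeq2 and -0.030 without both replicates 3, where mcm4 was -0.16, bub1bb -0.40 and cdc20 -0.054. With 1 library left out, tyms ranged from -0.12 to 0.12, mcm3 from -0.057 to 1.71, mcm4 from -0.071 to 0.43, pcna from -0.34 to 0.057 and bub1bb from -0.16 to 0.78. The cause was not tested. Each library held at least 25128422 reads, and how counting error compares with the spread between libraries was not tested.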

Other observations

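Of the 179 cell cycle genes matched over the members and the other lists, 13 were at 0 reads in all 6 libraries of the count table, and all 13 lie wholly inside another gene. Beside mcm7, cdt1 and cenpe they are the origin genes orc4 and dbf4, the fork genes pole2 and rfc4, the kinetochore gene nuf2, the passenger complex gene cdca8, the kinase gene cdk2, lin37, and the brakes cdkn2d and btg2. None of these genes can be read as silent from this table.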
